A study of Rattus norvegicus with 16 samples.

Results

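The line by training interaction asks whether 8 weeks of treadmill training went with a different gene expression response in the left ventricle of rats bred for high running capacity than in rats bred for low running capacity. It was computed for each probe set as the training difference (trained minus sedentary) in High Capacity Runners (HCR) minus the same difference in Low Capacity Runners (LCR). All 16 of the 16 arrays entered, and 31042 probe sets were tested. An interaction above 0 means that the training difference was higher in HCR than in LCR, whatever the levels of the lines, and one below 0 the reverse.

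Both lines came from the N:NIH stock and were at generation 16 of selection, with rats tested for running capacity at 11 weeks of age. All rats were female and about 7 months old at tissue collection, with 1 Affymetrix array per rat. In each line 4 rats stayed sedentary and 4 were trained, 5 days per week for 1.5 hours, on a treadmill at an incline of 25 degrees. Within a session, bouts of 8 minutes at 85 to 90% of VO2max were followed by 2 minutes at 50 to 60%. Each line is a bred population and not an inbred strain, so rats of a line can differ in genotype. In bulk tissue, fewer cells of a type and less RNA per cell cannot be told apart.

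As background, endurance training enlarges the ventricle through insulin-like growth factor and PI3K-Akt signalling, and it can shift calcium handling, fuel use and capillary growth. Fatty acids supply most of the energy of the working heart, and their oxidation genes are switched on by the PPAR nuclear receptors when fatty acids are plentiful. Selection for running capacity separates rats by inborn endurance before any training, which is why a response to training can be compared between the lines.

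The levels are RMA values on a log2 scale, so a difference of 1 is a factor of 2. Across the 16 arrays every pair correlated at r between 0.984 and 0.995 over probe sets. The 14 cardiomyocyte markers measured were bright on every array, with mean levels per gene from 10.19 to 14.30, and their summed level lay between 17.36 and 17.43 in all rats. HCR sedentary rat 5 stood apart on Xist, the X-inactivation transcript of female cells. Its 4 Xist probe sets read 3.76 to 4.94, against 7.56 to 10.34 in the other 15 rats, which goes against the female label. Y-linked probe sets could not decide the matter, as no rat labelled male was there to compare with. Uty read 6.15 and 5.24 in this rat. The first was below the 6.92 to 7.36 of the other rats, and the second within their 5.04 to 5.29. Eif2s3y read 3.53 in this rat, against 3.33 to 3.50 in the others, all close to the lowest deposited value of 3.24. Without that rat the interaction still gave no call, and the interactions of the 62 genes named below by rule kept their sign. Those genes were chosen with that rat included.

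No probe set passed the interaction test at an adjusted p of 0.05 (limma, Benjamini-Hochberg over 31042 probe sets), that is 0% called, and the lowest adjusted p was 0.251. At an unadjusted p below 0.05 the interaction was above 0 for 1524 probe sets (4.91%) and below 0 for 1544 (4.97%), together 9.88%. By chance alone 1552.1 would be reached on average, and correlation between probe sets widens the spread around that number. A difference of 2-fold or more between the training responses was measured for 31 probe sets and of 1.5-fold or more for 184. The median 95% confidence interval of an interaction reached 0.23 to either side on the log2 scale, a factor of 1.17. The genes described below are therefore those with the lowest p or largest values, and none of them passed the test. In each direction they are the 15 of lowest p, the 10 of largest interaction among brighter probe sets and the 10 with the largest training differences of opposite sign, 62 genes in all.

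Of these 62 genes all kept the sign of their interaction under every alternative processing. They were picked by the interaction or training differences on these same arrays, which favours a kept sign. For 30 of them the array holds more than 1 probe set, and in 19 of the 30 every probe set had the same sign. Since the probe set of lowest p stands for each gene, values of its other probe sets are given where they differ.

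Within the lines, training differences were themselves small. In HCR no probe set passed (limma, lowest adjusted p 0.0927), and 4308 had an unadjusted p below 0.05 (13.9%), 2014 up (6.49%) and 2294 down (7.39%). Without HCR trained rat 6, 39 probe sets passed in HCR, without LCR trained rat 2 there were 3, and without LCR trained rat 4 there was 1. In LCR 1 probe set passed (0.00322%) and 1728 had an unadjusted p below 0.05 (5.57%), 700 up (2.26%) and 1028 down (3.31%). The probe set that passed, 1374916_at, has no gene name in the array annotation used here. It read 6.10, 5.59, 6.10 and 5.75 in LCR sedentary rats and 6.73, 6.82, 6.97 and 7.02 in LCR trained rats. In HCR it read 6.76, 6.83, 6.65 and 6.85 in sedentary and 6.86, 6.92, 6.84 and 6.80 in trained rats. It rose with training in LCR, by 1.00 (adjusted p = 0.000831, limma), to values near those of both HCR groups. With the 8 LCR arrays fitted alone no probe set passed in LCR (limma, lowest adjusted p 0.247), and none did with the rat number as a block (0.0863). Its interaction was the one of lowest p of all (-0.92 ± 0.14, SE, adjusted p = 0.251).

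**Figure D1:**
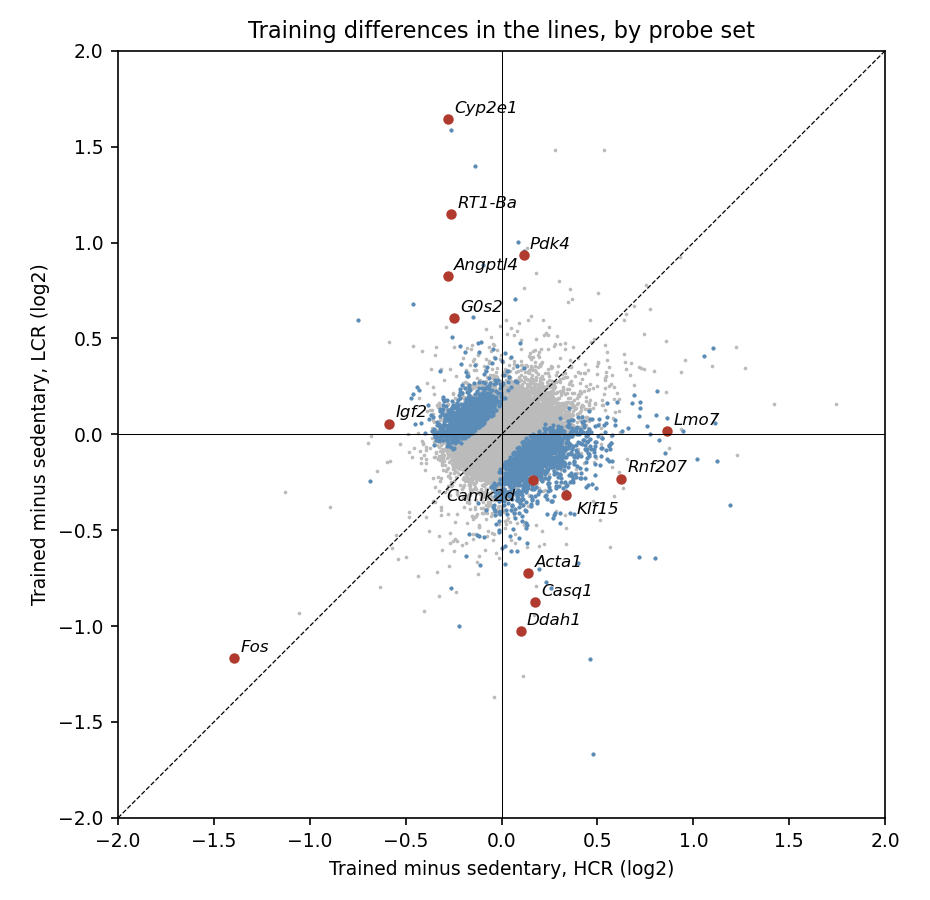
Training difference in HCR (horizontal, log2) against training difference in LCR (vertical, log2) for each probe set (grey; blue where the unadjusted interaction p was below 0.05; red for named genes), with a dashed line for equal responses and 1 probe set outside the axes. Cyp2e1 and RT1-Ba lie near the vertical axis, with a difference mainly in LCR, Lmo7 near the horizontal axis, with a difference mainly in HCR, and Fos near the dashed line.

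Few probe sets had a training difference at an unadjusted p below 0.05 in both lines, in opposite or in the same direction. That p was reached by 13.9% in HCR and by 5.57% in LCR. Without a threshold, the training differences had opposite signs in 52.1% of all probe sets. Training differences had opposite signs, each at an unadjusted p below 0.05, for 64 probe sets up in HCR and down in LCR (0.206%) and for 42 the other way (0.135%), while 130 had the same sign in both lines (0.419%). In 18 probe sets (0.058%) every trained rat lay above every sedentary rat in HCR and below every one in LCR, and in 12 (0.0387%) the reverse held. Trained and sedentary rats did not overlap in 8% of all probe sets in HCR and in 2.82% in LCR. The plot of training differences in both lines shows most probe sets with a low interaction p off the dashed line on either side of the origin. A low interaction p itself implies a place off that line.

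Among calcium and growth signalling genes, Camk2d, the main cardiac isoform of the calcium/calmodulin-dependent kinase II, had one of the lowest p-values. It read 10.46, 10.42, 10.38 and 10.48 in HCR sedentary and 10.62, 10.52, 10.62 and 10.67 in HCR trained rats, and 10.66, 10.62, 10.74 and 10.79 in LCR sedentary and 10.46, 10.51, 10.38 and 10.51 in LCR trained rats. In each line the trained and the sedentary rats did not overlap, higher with training in HCR and lower in LCR. The training differences were 0.17 and -0.24, and the interaction was 0.40 ± 0.08 (SE, 95% interval 0.24 to 0.57, adjusted p = 0.368, limma). Its dimmer probe sets had interactions of 0.29 and 0.02. Camk2g, another isoform of the kinase, had the opposite sign, -0.30 ± 0.08, and -0.16 on its brighter probe set.

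Pik3ip1, an inhibitor of the PI3K catalytic subunit, read 8.61, 8.80, 8.48 and 8.66 in HCR sedentary rats and 8.89 to 8.96 in HCR trained rats, while LCR sedentary rats read 8.94 to 9.18 and LCR trained rats 8.72 to 8.94. The HCR groups did not overlap, and the LCR groups met at 8.94. Its interaction was 0.51 ± 0.10 (SE, adjusted p = 0.381, limma), and 0.09 (95% interval -0.10 to 0.27) on its dimmer probe set. Bcl2l11, the pro-apoptotic protein Bim, was shaped alike: from 8.06 to 8.23 up to 8.23 to 8.44 with training in HCR and from 8.39 to 8.66 down to 7.94 to 8.33 in LCR, with an interaction of 0.54 ± 0.12 (SE), but 0.01 and 0.06 on 2 dimmer probe sets.

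Klf15, a transcription factor known to restrain cardiac growth and to drive amino acid and lipid use, had the same sign on all 3 of its probe sets, 0.65, 0.50 and 0.37. On the brightest it read 9.07, 9.34, 8.92 and 9.03 in HCR sedentary, 9.42, 9.28, 9.54 and 9.46 in HCR trained, 9.46, 9.92, 9.80 and 9.51 in LCR sedentary and 9.37, 9.09, 9.28 and 9.68 in LCR trained rats. Sedentary LCR rats were all above sedentary HCR rats, and trained rats of the lines overlapped. The interaction was 0.65 ± 0.18 (SE, 95% interval 0.28 to 1.03, adjusted p = 0.475, limma). Klhl38, a kelch protein of striated muscle (0.61 ± 0.16), and Dgkz, a diacylglycerol kinase (0.58 ± 0.14), had differences of the same directions.

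Igf2, a growth factor most active before birth, ran the other way. It read 8.31, 8.45, 8.33 and 8.36 in HCR sedentary rats and 7.67, 7.69, 7.68 and 8.08 in HCR trained rats, against 7.97, 7.60, 7.88 and 7.78 in LCR sedentary and 7.84, 8.16, 7.63 and 7.82 in LCR trained rats. Sedentary HCR rats stood above all other rats, and the other 3 groups overlapped. The training differences were -0.58 and 0.06, and the interaction was -0.64 ± 0.16 (SE, adjusted p = 0.475, limma), with -0.09 to -0.13 on its dimmer probe sets.

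**Figure D2:**
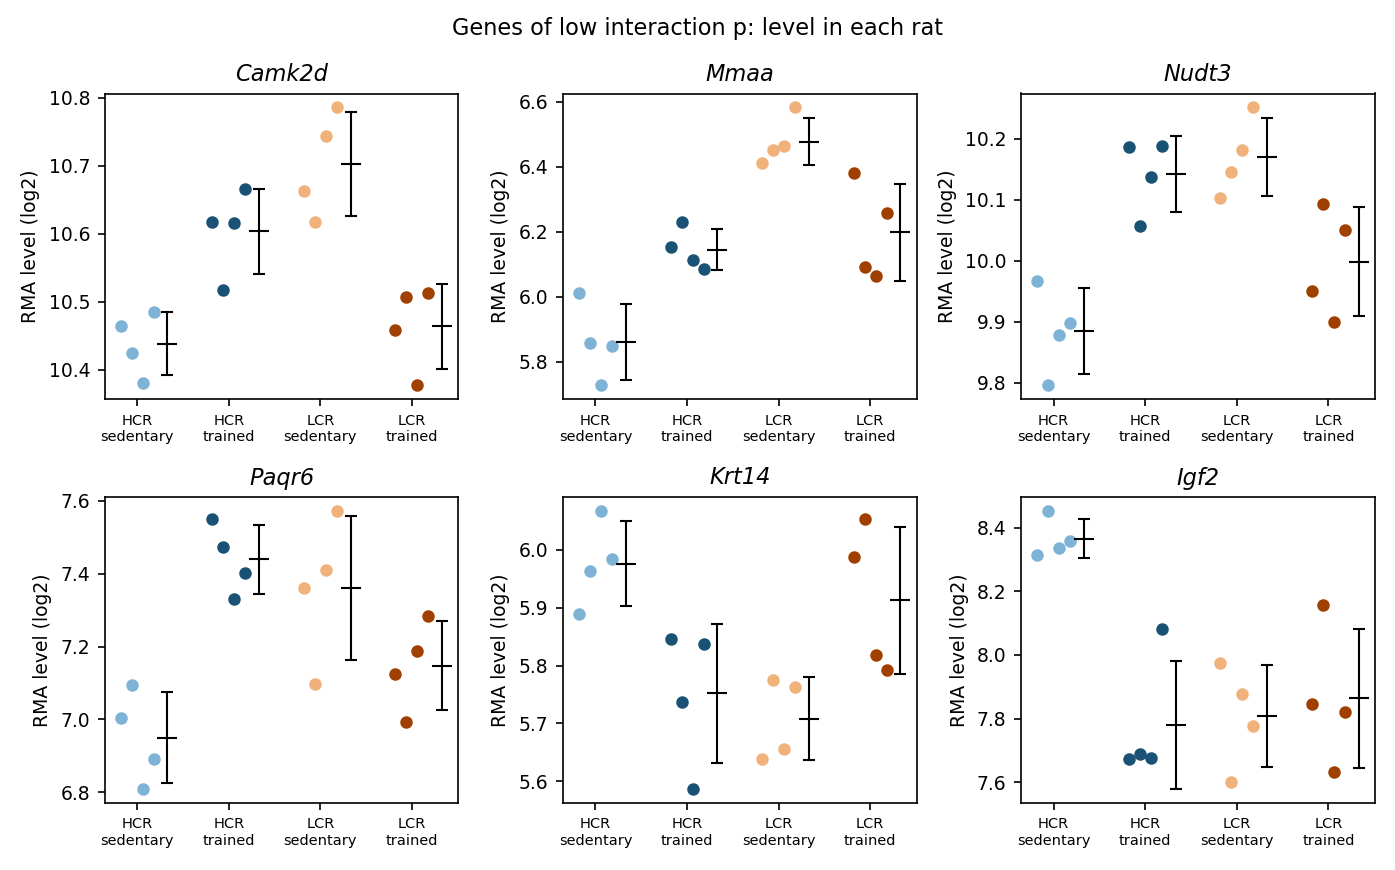
RMA level (log2) in each rat for Camk2d, Mmaa, Nudt3, Paqr6, Krt14 and Igf2, by line and training. Points are rats, and the bar beside each group is the mean with its SD (n = 4). In Camk2d, Mmaa and Nudt3 the trained rats lie above the sedentary rats in HCR and below them in LCR, in Krt14 the reverse, and in Igf2 the HCR sedentary rats lie above all others. The vertical axes do not start at 0.

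The remaining genes of lowest p include several with mitochondrial products. Mmaa, which helps load vitamin B12 onto methylmalonyl-CoA mutase in the breakdown of odd-chain fatty acids and some amino acids, read 6.01, 5.86, 5.73 and 5.85 in HCR sedentary and 6.15, 6.23, 6.11 and 6.09 in HCR trained rats. In LCR it read 6.41, 6.45, 6.46 and 6.58 in sedentary and 6.38, 6.09, 6.06 and 6.26 in trained rats. The groups of each line did not overlap, sedentary lines differed by -0.62 (HCR minus LCR) and trained lines by -0.05, and the interaction was 0.56 ± 0.11 (SE, adjusted p = 0.368, limma). Tafazzin, the enzyme that remodels cardiolipin of the inner membrane, had an interaction of 0.31 ± 0.07 (SE) on its brighter and 0.21 on its dimmer probe set, and the groups of each line did not overlap. Oxsm, of mitochondrial fatty acid synthesis, had 0.45 ± 0.10, and Grpel2, a cofactor of the mitochondrial chaperone Hsp70, -0.31 ± 0.08. For Coq9, of coenzyme Q synthesis, the dimmer probe set gave -0.53 and the bright one 0.07.

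Paqr6, a membrane receptor of the progestin and adiponectin receptor family, had the lowest p of any named gene. It read 7.00, 7.10, 6.81 and 6.89 in HCR sedentary and 7.55, 7.47, 7.33 and 7.40 in HCR trained rats, and 7.36, 7.10, 7.41 and 7.57 in LCR sedentary and 7.12, 6.99, 7.19 and 7.28 in LCR trained rats. HCR trained rats were all above HCR sedentary rats, and the LCR groups overlapped. The interaction was 0.70 ± 0.13 (SE, 95% interval 0.42 to 0.98, adjusted p = 0.368, limma). Nudt3, a phosphatase of inositol pyrophosphates, had 0.43 ± 0.08 on its brighter and 0.14 on its dimmer probe set.

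Lmo7 and Rnf207 had a difference mainly in HCR. Lmo7, a LIM-domain protein of cell junctions and the nuclear envelope, read 8.00, 8.45, 8.10 and 7.94 in HCR sedentary and 9.26, 8.85, 9.08 and 8.75 in HCR trained rats, a factor of 1.82. In LCR it read 8.63, 8.60, 8.79 and 8.64 in sedentary and 8.48, 8.40, 9.12 and 8.74 in trained rats. Training separated the HCR rats and not the LCR rats, with an interaction of 0.84 ± 0.21 (SE, adjusted p = 0.475, limma), and the 3 other probe sets gave 0.25, 0.26 and 0.50.

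Rnf207, a cardiac ubiquitin ligase linked to the QT interval, read 8.41, 8.60, 8.16 and 8.42 in HCR sedentary and 9.16, 9.20, 8.93 and 8.79 in HCR trained rats. It read 8.89, 9.25, 9.09 and 9.49 in LCR sedentary and 8.75, 8.83, 9.02 and 9.20 in LCR trained rats. Sedentary HCR rats were below all other rats. The interaction was 0.85 ± 0.19 (SE, 95% interval 0.46 to 1.25, adjusted p = 0.459, limma), and all 5 of its probe sets were above 0, from 0.14 to 0.85. Trim63, the muscle ubiquitin ligase MuRF1, had 0.50 ± 0.16 (SE), and Ttn, the giant sarcomere spring titin, 0.31 ± 0.13 (SE). The lists that hold them were split in the deposited values. Of 29 proteasome and atrophy genes 15 lay above 0, with 1 at an unadjusted p below 0.05 (3.45%). Of 31 sarcomere genes 17 lay above 0, with 2 at that p (6.45%), against 10.7% of all genes. After quantile normalization 7 of the 29 and 16 of the 31 lay above 0.

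Acta1, Casq1 and Ddah1 had a difference mainly in LCR, with wide scatter between rats. Acta1, skeletal alpha-actin, read 12.74, 11.67, 12.76 and 12.05 in LCR sedentary and 10.91, 12.05, 11.20 and 12.17 in LCR trained rats, and the HCR rats lay between 11.65 and 12.53. Casq1, the skeletal calsequestrin that stores calcium, read 8.91, 9.04, 9.43 and 8.97 in LCR sedentary and 7.92, 8.80, 7.53 and 8.59 in LCR trained rats. Ddah1, which degrades an inhibitor of nitric oxide synthase, read 8.54, 9.51, 8.70 and 9.66 in LCR sedentary and 8.02, 7.59, 7.87 and 8.84 in LCR trained rats. The LCR groups did not overlap for Casq1 and did for Acta1 and Ddah1. Their interactions were 0.86 ± 0.41, 1.05 ± 0.41 and 1.13 ± 0.44 (SE), each with an adjusted p of 0.482 to 0.505 (limma).

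G0s2, Cyp2e1, Pdk4, Ucp3 and Angptl4, named singly here, had larger mean training differences in LCR than in HCR, none of which passed the test. G0s2, an inhibitor of the lipase that breaks down stored triglyceride, read 10.24, 9.99, 10.00 and 9.71 in HCR sedentary, 9.85, 9.47, 9.96 and 9.67 in HCR trained, 9.86, 9.12, 9.82 and 9.91 in LCR sedentary and 10.15, 9.97, 10.67 and 10.35 in LCR trained rats. Trained LCR rats were all above sedentary LCR rats, and the HCR groups overlapped. The interaction was -0.86 ± 0.25 (SE, 95% interval -1.38 to -0.33, adjusted p = 0.475, limma). Without LCR sedentary rat 3, the lowest of its group, it was -0.67.

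Cyp2e1, a cytochrome P450 that oxidises fatty acids, ketones and ethanol, had the largest interaction among the brighter named genes, -1.92 ± 0.75 (SE, adjusted p = 0.482, limma). It read 6.17, 7.07, 6.47 and 6.62 in LCR sedentary rats and 9.07, 7.28, 9.99 and 6.58 in LCR trained rats, so 2 of the 4 trained rats carried the difference. The HCR rats read 7.10 to 8.33 sedentary and 7.17 to 8.04 trained. Without LCR trained rat 3 the interaction was -1.34.

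Pdk4, the kinase that shuts off pyruvate oxidation when fatty acids are burned, read 8.79, 10.35, 9.09 and 9.58 in LCR sedentary and 10.20, 10.33, 10.93 and 10.08 in LCR trained rats, and 9.70 to 10.76 in HCR rats. Its interaction was -0.82 ± 0.42 (SE, 95% interval -1.72 to 0.08, adjusted p = 0.539, limma). Ucp3, a mitochondrial carrier induced with fatty acid oxidation, had -0.52 ± 0.25 (SE), and -0.32 without LCR trained rat 3. Angptl4, a secreted inhibitor of lipoprotein lipase, had -1.10 ± 0.71 (SE), which rested on LCR trained rat 3 at 8.30, with the other LCR trained rats at 5.30 to 5.42, and was -0.37 without that rat. LCR trained rat 3 was the highest of its group for Cyp2e1, G0s2, Pdk4, Ucp3 and Angptl4.

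The list of PPAR targets and fatty acid oxidation genes as a whole did not share these values. Of its 30 measured genes 17 had an interaction below 0 and 13 above, none at an unadjusted p below 0.05, with a median of -0.03, against 0.01 over all 14217 genes. After quantile normalization, which gives every array the same distribution of values, 23 of the 30 lay below 0, with 3 at an unadjusted p below 0.05 and a median of -0.04. The median was 0.01 with arrays centred on their medians and 0.0048 without LCR sedentary rat 2. The enzymes of beta-oxidation itself, such as Hadha (0.00), Acadl (0.03), Acadm (0.10) and Cpt1b (-0.03), had interactions close to 0. Citrate synthase, Cs, had 0.03 (95% interval -0.15 to 0.21), and the respiratory chain list of 33 genes a median of 0.01, with none at an unadjusted p below 0.05.

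The contractile and stress genes of the heart gave narrow intervals for some and wide ones for others. Atp2a2, the calcium pump SERCA2, had -0.01 (95% interval -0.14 to 0.12), its inhibitor Pln -0.04 (-0.17 to 0.09) and the fast myosin heavy chain Myh6 0.01 (-0.19 to 0.22). For the slow myosin Myh7 the interval reached from -0.69 to 0.60. Nppa, the atrial natriuretic peptide, had 0.72 (-0.21 to 1.65). Fos was lower in trained rats of both lines, by 1.40 in HCR and 1.17 in LCR as log2 means, and Egr1, another immediate early factor, by 1.06 and 0.93, so their interactions were -0.23 (-2.02 to 1.57) and -0.12 (-1.30 to 1.05). None of these differences passed the test.

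Vegfa, the main angiogenic factor, read 10.83, 10.99, 10.81 and 10.88 in HCR sedentary and 11.26, 11.08, 11.17 and 11.07 in HCR trained rats, and 11.02 to 11.21 in LCR sedentary and 10.86 to 11.22 in LCR trained rats. HCR sedentary rats were below all HCR trained rats, and the LCR groups overlapped. The interaction was 0.33 ± 0.11 (SE, adjusted p = 0.475, limma), and 0.08 on the dimmer Vegfa probe set. Of 28 measured genes that were set aside as landmarks of training, contraction and matrix, 3 had an unadjusted p below 0.05, the same 10.7% as over all genes, namely Acta1, Vegfa and the clock output factor Dbp (0.32 ± 0.11, SE), all above 0. After quantile normalization 3 were above and 3 below 0 at that p.

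Among growth signalling genes, 22 of 33 had an interaction above 0 and 11 below, with 7 and 2 at an unadjusted p below 0.05, beside 6.35% above and 4.3% below 0 over all genes. The median was 0.10, but 0.06 without LCR trained rat 1 and 0.14 without LCR trained rat 4. After quantile normalization the counts at that p were 3 and 3. The 7 were Pik3ca, Tsc2, Mtor, Rps6kb1, Rictor, Igfbp5 and Ddit4, from 0.23 to 0.62. Mtor is the growth kinase itself, Rictor a subunit of its second complex, Tsc2 and Ddit4 its inhibitors and Rps6kb1 its S6 kinase substrate. Other probe sets gave -0.04 for Rictor and -0.16 to 0.06 for Igfbp5. The 2 below 0 were Igf2 and Nrg1, the endothelial ligand of ErbB receptors (-0.28, and -0.20 to 0.09 on its other probe sets). Igf1 had -0.32 ± 0.17 (SE, 95% interval -0.67 to 0.04).

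Over all genes 52.9% lay above 0 and 10.7% had an unadjusted p below 0.05. Of 17 circadian clock genes 12 lay above 0 (70.6%), with a median of 0.16 and 4 at that p (23.5%). Dbp, Bhlhe41, a repressor of the clock (0.42 ± 0.15), and Cry2, another (0.23), had an unadjusted p below 0.05 above 0, and Rora, an activator of Bmal1, below 0 (-0.28 ± 0.10). Their other probe sets turned the sign for Cry2 (-0.22) and Rora (0.10). The labels used here do not give the hour of tissue collection. Of 27 calcium cycling genes 18 were above 0 (66.7%), with a median of 0.09, and 3 (11.1%, near the share over all genes) were at that p, namely Camk2d, Casq1 and S100a1, an enhancer of calcium cycling (0.28). Their median was 0.05 without HCR sedentary rat 4 or LCR sedentary rat 5 and 0.06 without LCR trained rat 3. After quantile normalization Camk2d and Casq1 stayed below that p, and S100a1 (0.18) did not. Of 27 mitochondrial ribosome genes 24 were above 0 (88.9%), with a median of 0.10, or 0.06 without HCR sedentary rat 4. Mrpl27 (0.22), Mrpl12 (0.19) and Mrps28 (0.18), 11.1% of the list, were at an unadjusted p below 0.05. After quantile normalization 15 of the 27 were above 0, and none of these 3 was below that p.

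**Figure D3:**
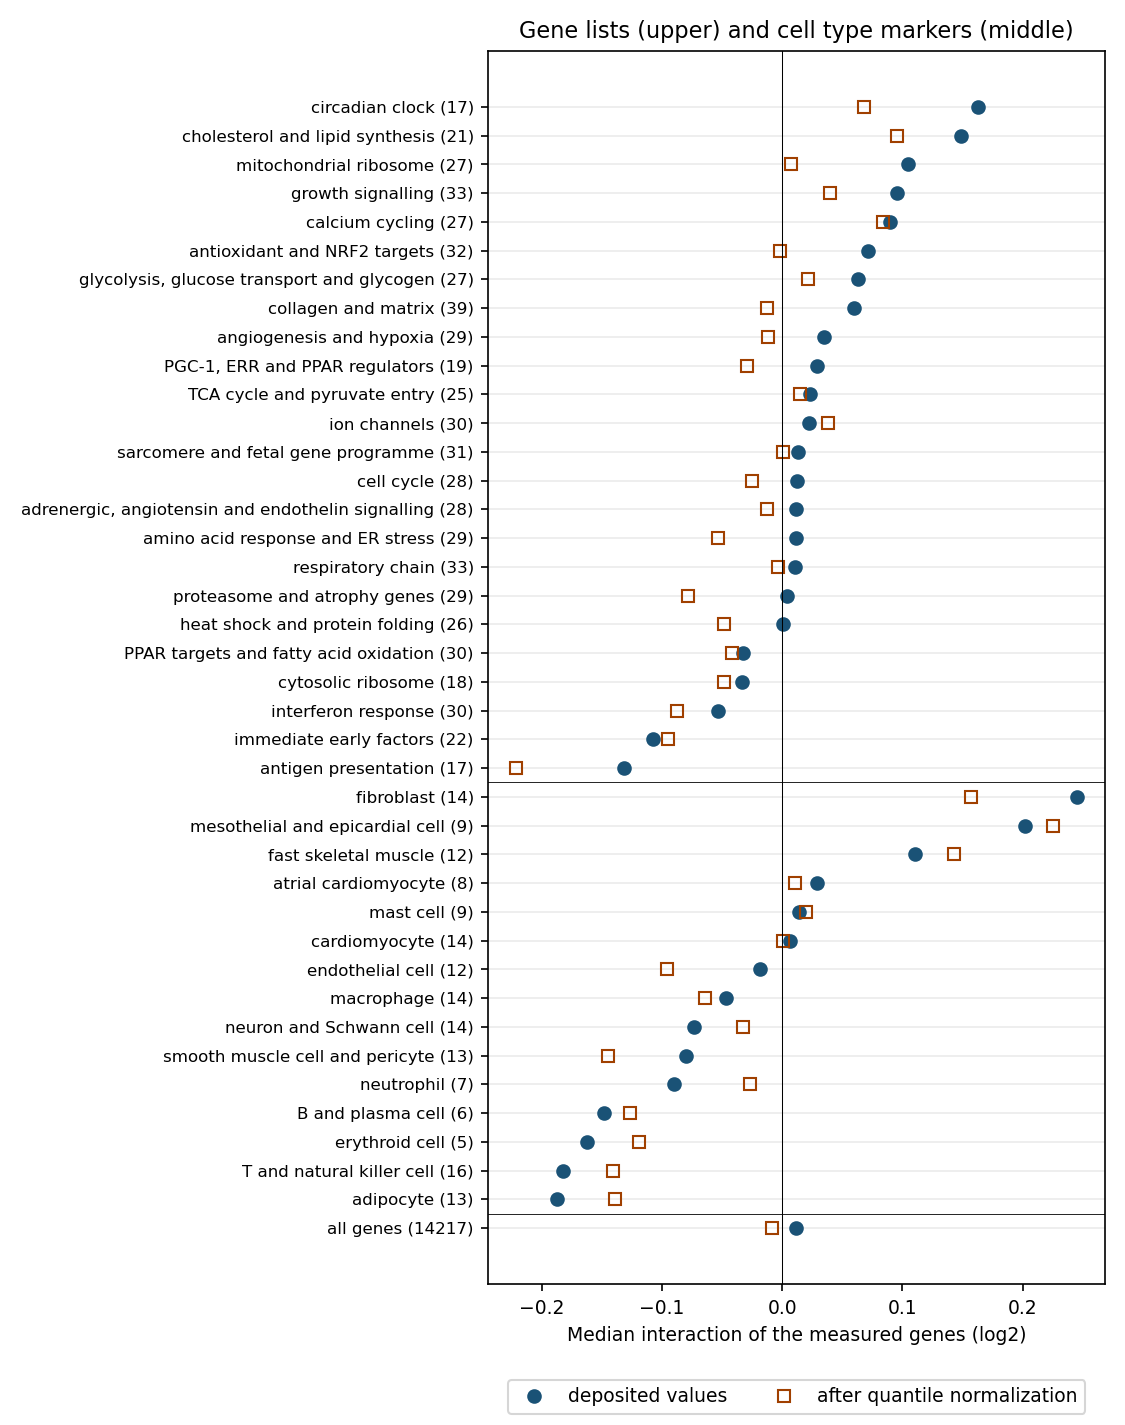
Median interaction (log2, horizontal) of each gene list, with the number of measured genes in brackets, for the deposited values (filled circles) and after quantile normalization (open squares). Pathway lists are above, cell type markers in the middle and all genes at the bottom. For the deposited values the clock list has the highest pathway median, 0.16, and antigen presentation the lowest, -0.13, while after quantile normalization the clock median is 0.07, below cholesterol and lipid synthesis at 0.10 and calcium cycling at 0.08.

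Antigen presentation had 14 of 17 genes below 0 and a median of -0.13, with 2 at an unadjusted p below 0.05 (11.8%). Without LCR trained rat 4 that median was -0.03 and without LCR sedentary rat 3 it was -0.06, while without LCR sedentary rat 2 or LCR trained rat 2 it was -0.24 or -0.20. The interferon list had 19 of 30 below 0 and a median of -0.05, with 2 at that p (6.67%). The interferon median had no stable sign: leaving out single rats gave -0.17 (LCR trained rat 2) to 0.07 (LCR trained rat 4). For RT1-Ba, an alpha chain of class II molecules, 2 probe sets gave -1.41 and -1.54, another -0.44 and the last 1.37. On the first, LCR sedentary rats read 8.16, 9.70, 9.95 and 8.28, LCR trained rats 9.94, 9.94, 9.91 and 10.88, and all HCR rats 8.13 to 8.63. On the last, LCR trained rats were low, at 6.09, 5.75, 6.28 and 5.43. So LCR rats fell into high and low levels, and the probe sets disagreed on the direction. Genes of this region are highly polymorphic as background, and the part of genotype in the result was not tested. Mx2, an interferon-induced GTPase, had -1.34 ± 0.56 (SE), which rested on LCR trained rat 4 at 7.22 beside 4.94 to 5.18 in its group, and on 6.68 and 6.30 in 2 HCR sedentary rats. Without LCR trained rat 4 it was -0.81, and the other Mx2 probe set gave 0.10.

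The largest value of all, chosen after it was seen, was that of Fam111a, an antiviral protease, with an interaction of 5.10 ± 2.69 (SE, adjusted p = 0.545, limma). It read 4.90, 4.90, 11.13 and 11.31 in HCR sedentary, 11.36, 11.43, 11.33 and 4.92 in HCR trained, 11.81, 4.84, 11.54 and 4.72 in LCR sedentary and 4.80, 4.70, 4.80 and 4.99 in LCR trained rats. Each rat was either near 5 or above 11, with no value between, in sedentary rats of both lines alike. How many rats of each kind fell in a group set the size of the interaction.

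Of the cell type marker lists, those of fibroblasts, T and natural killer cells and adipocytes are described, and no marker of any list was called. Other lists leaned to 1 side too. Of 9 mesothelial and epicardial markers 7 lay above 0 (median 0.20, but 0.04 without HCR trained rat 4), and all 7 neutrophil markers lay below 0 (median -0.09). Cardiomyocyte (median 0.01) and endothelial (-0.02) lists lay near 0. Of 14 fibroblast markers 12 lay above 0, with a median of 0.24 and 1 at an unadjusted p below 0.05 (7.14%). The median was 0.10 without LCR trained rat 3 and 0.12 without HCR trained rat 3. Their mean centred level was -0.17 ± 0.06 (SD) in HCR sedentary, -0.07 ± 0.14 in HCR trained, 0.18 ± 0.09 in LCR sedentary and 0.07 ± 0.21 in LCR trained rats. Their summed level ran from 13.82 to 13.89, 13.83 to 13.98, 13.91 to 14.20 and 13.84 to 14.15 in these groups. Of 39 collagen and matrix genes 23 lay above 0 (median 0.06, but -0.01 after quantile normalization and 0.02 to 0.04 without LCR trained rat 1 or 3, LCR sedentary rat 2, HCR sedentary rat 5 or HCR trained rat 6). The 4 at an unadjusted p below 0.05, Thbs4, Mmp9, Col18a1 and Col12a1, all lay below 0. They were 10.3% of the list, near the 10.7% over all genes, and after quantile normalization 2 genes were below 0 at that p. T and natural killer cell markers were below 0 in 15 of 16, with a median of -0.18 (-0.12 without HCR trained rat 4 and -0.29 without HCR trained rat 5) and 2 at an unadjusted p below 0.05 (12.5%), and their summed level ran from 9.89 to 10.34 in HCR sedentary, 9.68 to 10.37 in HCR trained, 9.90 to 10.55 in LCR sedentary and 10.17 to 10.61 in LCR trained rats. Adipocyte markers were below 0 in 10 of 13, with a median of -0.19 (-0.12 without HCR sedentary rat 6 and -0.11 without LCR sedentary rat 5) and 3 at that p (23.1%), and summed to 12.56 to 12.75, 12.61 to 12.81, 12.50 to 12.67 and 12.60 to 12.98 in the same order of groups. The summed ranges overlapped between most groups. Over all genes 7520 lay above 0 and 6697 below. The part of cell composition in the gene values above was not tested.

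The interaction also depended on how bright a probe set was. With probe sets ordered by mean level and split into 10 deciles, the median interaction was -0.07 in decile 3 and 0.10 in decile 9. The interquartile range of an array's values averaged 2.02 ± 0.06 (SD, n = 4) in HCR sedentary, 2.13 ± 0.05 in HCR trained, 2.17 ± 0.03 in LCR sedentary and 2.15 ± 0.10 in LCR trained rats. Its own interaction was 0.14 (two-sided exact permutation p = 0.0608 over 4900 arrangements), and that of the array medians -0.05 (p = 0.0408, exact permutation, unadjusted for the 2 properties tested). The permutations shuffled training labels within each line, so their null is no training difference in either line, not equal differences. Once arrays were quantile normalized, the decile medians lay between -0.02 and 0.00. Then 2335 probe sets had an unadjusted p below 0.05, of which 1756 shared the sign and threshold with the deposited values, 57.2% of the one set and 75.2% of the other. Of the 62 named genes 61 stayed below 0.05, and all kept their sign. They were picked by the interaction on these same arrays, which favours this, so it is no independent support. The list medians moved from 0.16 to 0.07 for the clock, from 0.10 to 0.04 for growth signalling and from 0.10 to 0.01 for the mitochondrial ribosome, and were then 0.08 for calcium cycling, 0.16 for fibroblast, -0.14 for T and natural killer cell and -0.22 for antigen presentation lists. When arrays were centred on their medians the split at an unadjusted p below 0.05 became 2495 above and 754 below 0.

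**Figure D4:**
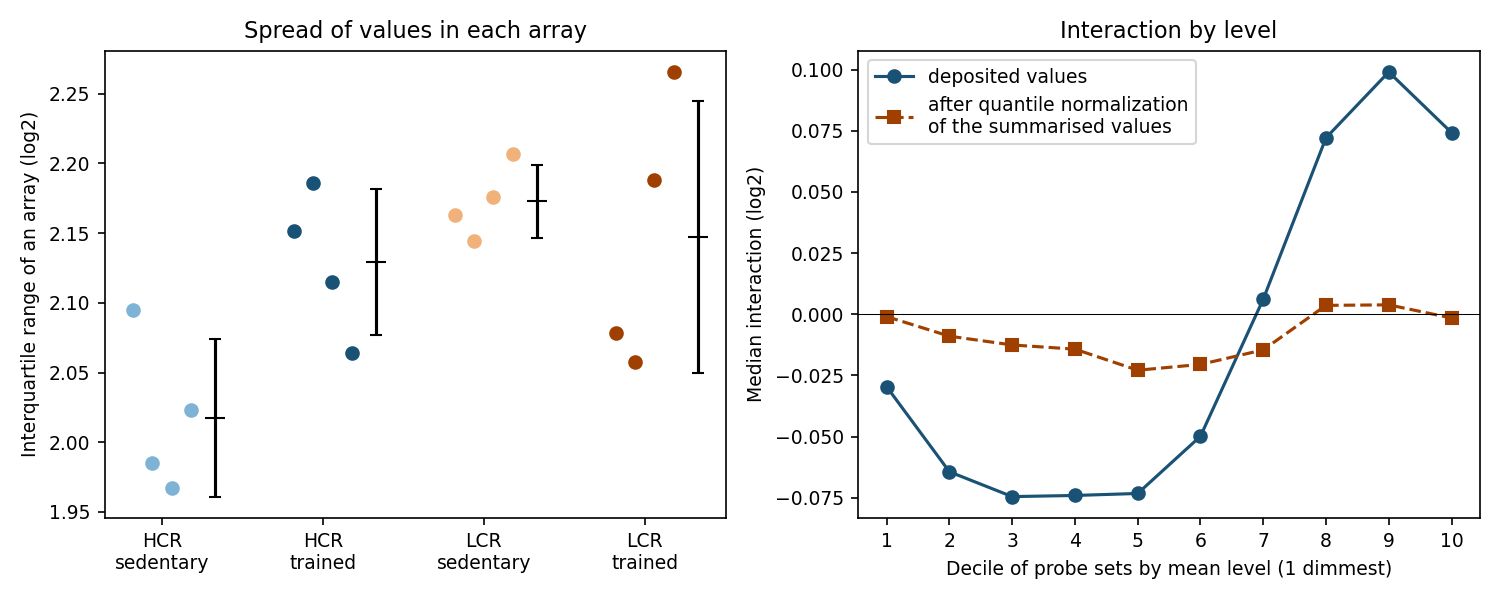
Left, interquartile range of the values of each array (log2), with points for rats and the mean with SD (n = 4). Right, median interaction (log2) in deciles of the probe sets by mean level, for deposited values and after quantile normalization. HCR sedentary arrays have the narrowest mean spread, and the curve of the deposited values runs from -0.07 in decile 3 to 0.10 in decile 9, while the other stays between -0.02 and 0.00.

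The sedentary rats differed more than the trained rats in the probe sets with a low interaction p. Of the 1524 above 0, HCR sedentary had the lowest mean of the 4 groups in 78%, against 30.2% of all probe sets, and of the 1544 below 0 it had the highest mean in 87.5%, against 40.4% of all. Their median absolute line difference was 0.24 and 0.21 in sedentary rats, and 0.08 and 0.06 in trained rats. Over all probe sets it was 0.11 in sedentary and 0.06 in trained rats, so a larger line difference in sedentary rats was not particular to them. The shares and line differences at a low p describe probe sets chosen by the interaction. An interaction of this kind requires unequal line differences. The training differences had opposite signs in 90.2% of those above 0 and 94% of those below, against 52.1% of all probe sets. Choosing by the interaction favours opposite signs too, so these shares are no separate result.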

How the data were processed

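RNA from the left ventricle was hybridised to Affymetrix rat expression arrays, 1 per rat. Per the submitters' processing notes the authors used RMA and limma, without versions. The deposited values are taken as log2 expression because they run from 3.24 to 14.54, since no source used here states the base. Of 31099 rows, 57 control probe sets were left out. Gene names came from the platform annotation, where 20826 probe sets had 1 symbol, 436 several and 9780 none listed.

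A linear model with 1 mean per group was fitted to each probe set (limma 3.58.1, R 4.3.3) over all 16 arrays, 12 residual degrees of freedom and no covariate, with no filter on low values. Tests were two-sided, and p-values were adjusted by Benjamini-Hochberg over 31042 probe sets. Precision is limited by the number of arrays, 4 per group. The fit was tested on simulated data. Lists used the brightest probe set of each of 14217 genes.

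Named genes were the 15 of lowest interaction p in each direction, the 10 of largest interaction at an unadjusted p below 0.05 and at or above the median level, and the 10 with the largest opposite training differences at that p in both lines. Preset genes and, per list, up to 3 members (2 of marker lists) of lowest p were added. Only part of these last is named, picked after their values were seen. The comparison, the genes and the lists were chosen with earlier results of these data known. Alternatives were quantile normalization, median centring, a level filter, 1 probe set per gene, trended and robust variances, array weights, a replicate block and leaving out rats.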

Additional observations from a re-analysis of the deposited data

Results flagged for a closer look

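In 32 of 552 groups of 4 rats (5.8%) for the genes described here 1 rat lay far from the other 3. Chance gives about 1 in 20 such groups. No cause was tested.

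Xist was low in HCR sedentary rat 5 on all 4 probe sets (4.54, 4.36, 3.76 and 4.94). It was also low in HCR trained rat 6 on one of them (7.99) and high in LCR sedentary rat 2 on another (8.25).

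Rat 3 of the LCR trained group was high for Angptl4 (8.30) and Pln (13.73). In that group rat 4 was high for Mx2 (7.22), RT1-Ba (10.88) and Timp1 (6.91), rat 2 for Aif1 (6.74) and rat 1 for Atp2a2 (14.02).

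Among HCR sedentary rats, rat 3 was high for Angptl4 (6.50) and low for Cidec (5.07), and rat 4 was low for RT1-M3-1 (7.21) and Tnfaip8 (6.01). Among HCR trained rats, rat 6 was high for Igf2 (8.08), Cyp2e1 (8.04), Kcnj3 (7.71) and Ctxnd1 (5.33), and rat 3 for Stat3 (8.82). In that group rat 4 was low for Camk2g (7.37), and rat 5 for Pik3ip1 (8.89) and Rnpepl1 (9.76).

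Among LCR sedentary rats, rat 2 was high for Fcgr3a (5.85), Nppb (12.09) and RT1-M3-1 (7.40), rat 3 was low for G0s2 (9.12), rat 5 was high for Cd3e (5.82) and Gpatch4 (6.12), and rat 6 was high for Atp2a2 (14.03).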

How the results depend on the processing

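The interaction gave 0 calls in all 24 alternatives, with a lowest adjusted p between 0.0909 and 0.707 (limma). Of the named genes 62 of 62 kept their sign, which their choice on these same arrays favours. With the rat number as a replicate block the interaction gave 0 calls, the HCR training difference 8 and the LCR one 0. Deviations of rats with the same number correlated at a median of 0.04 (16 pairs, 6 above 0.1). Rats with other numbers gave -0.01 (80 pairs, 19 above 0.1). Both sets ranged widely, so these correlations cannot tell whether the numbers pair the rats. For HCR training (0 calls) array weights gave 27, the HCR arrays alone 2, and leaving out HCR sedentary rat 5 and LCR trained rat 4 together 1; leaving out single rats gave 0 to 39. For LCR training (1 call) the LCR arrays alone and 1 probe set per gene, which drops the unnamed probe set called, gave 0, the pair left out 2, and single rats left out 1 to 4. The cause was not tested.

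Interactions near 0 changed sign, none with a call. With the block these were Nppb (0.13), Myh6 (-0.0472), Myh7 (0.13), Cs (-0.0495) and Ankrd1 (0.0047); with median centring Myh7 (0.0059), Atp2a2 (0.0383), Pln (0.0077) and Cpt1b (0.0217); with quantile normalization Atp2a2 (0.0271) and Ppargc1a (-0.0406); and without both rats Fos (0.0544) and Egr1 (0.18). Leaving out single rats gave Myh6 -0.033 to 0.056, Myh7 -0.28 to 0.10, Ppargc1a -0.0378 to 0.155, Cpt1b -0.0597 to 0.0086, Cs -0.0051 to 0.066, Hspa1a -0.20 to 0.11, Fos -0.72 to 0.24, Egr1 -0.53 to 0.17 and Timp1 -0.0275 to 0.13. Of 978 list medians under alternatives 70 moved by over 1 SD.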

Other observations

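Smaller groups of genes held values not yet described. The DNA replication genes Mcm2 and Mcm7, helicase subunits that load at replication origins, had interactions of 0.50 ± 0.13 and 0.24 ± 0.10 (SE). Mcm2 read 6.90, 7.20, 6.78 and 7.16 in LCR sedentary and 6.29, 6.54, 6.53 and 6.65 in LCR trained rats, with no overlap, and 6.58 to 6.84 in HCR rats. The list of 28 cell cycle genes was split evenly, 14 above and 14 below 0. Cyp11a1, the first enzyme of steroid hormone synthesis, read 7.41 to 7.89 in HCR sedentary and 7.67 to 8.07 in HCR trained rats, and 6.83 to 7.54 and 6.51 to 7.06 in the LCR groups, with an interaction of 0.70 ± 0.24 (SE). None of these passed the test (adjusted p = 0.475 for Mcm2 and Cyp11a1 and 0.487 for Mcm7, limma).

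Among 30 ion channel genes 4 were above and 2 below 0 at an unadjusted p below 0.05, beside 6.35% above and 4.3% below over all genes, but 1 above and 3 below after quantile normalization. Abcc8 had 0.35, Kcnq1, which carries a repolarising potassium current, 0.32, Kcnip2, a subunit of the transient outward channel, 0.29, and Scn7a, a sodium channel, 0.46. Kcnd2, the pore of that outward channel, had -0.30 and Kcnj3, an atrial potassium channel, -0.31. The 1 gene above 0 after quantile normalization was Abcc8 (0.27, unadjusted p = 0.0471, limma), so Kcnq1, Kcnip2 and Scn7a were no longer below that p.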
